A study of Mus musculus with 109 samples.

Results

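Carbonyl reductases and aldo-keto reductases use NADPH to turn reactive aldehydes, ketones and quinones into alcohols and hydroquinones. The carbonyl reductases Cbr1, Cbr2 and Cbr3 belong to the short-chain dehydrogenases, and Akr1b3 (aldose reductase), Akr1b7 and Akr1b8 to the aldo-keto reductases. Cigarette smoke carries many such carbonyls, and several of these genes are known targets of NRF2, a transcription factor that answers electrophiles and oxidants by binding antioxidant response elements. Cbr2 is known in mouse lung as an abundant reductase of club cells, the secretory cells of the small airways.

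The probes were chosen by platform gene symbol alone. Of the 6 genes, 4 had a probe, and these 4, of 16590 named genes on the array, are described here through 5 of its 25697 probes: 1 each for Cbr1 (ILMN_1236522), Cbr2 (ILMN_2756665) and Akr1b8 (ILMN_1219188), and 2 for Cbr3 (ILMN_2896768 and ILMN_2608811). No probe carried the symbol Akr1b3 or Akr1b7, which were not analysed here. All 5 probes passed the detection filter, which kept 15363 probes, and all 5 were detected on every array. The sequence of each probe was not used here, so binding of the Akr1b8 probe to transcripts of its close relatives could not be assessed.

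The arrays measured total RNA of whole mouse lung after 6 months of cigarette smoke, given on 5 days a week, or of filtered air. The study held 4 strain or genotype units: C57BL6 wild type with 22 arrays of air-breathing and 28 of smoke-exposed mice, Hhip+/- with 12 air and 14 smoke, Fam13a-/- with 6 air and 13 smoke, and the NZWLacJ strain, wild type, with 8 air and 6 smoke. Hhip encodes an inhibitor of Hedgehog ligands. No label gave age, sex or litter, or said that arrays came from separate animals, so each p-value measures only how far these samples spread. The background strain of the Hhip+/- and Fam13a-/- mice is labelled C57BL6, and how either allele was made is not stated in the labels used here. Values are normalized log2 signals, on which a difference of 1 is a doubling; in whole lung, fewer cells of a type and less RNA per cell cannot be told apart.

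Between 36% and 53.9% of probes were detected per array. The Hhip probe read 5.84 to 7.11 in C57BL6 air and 6.17 to 7.03 in Hhip+/- air, and the Fam13a probe 4.81 to 7.51 in C57BL6 air and 5.26 to 6.10 in Fam13a-/- air. These ranges overlap, and where the probes lie relative to the altered part of each gene is not given, so they do not check the labels. H2-Ea, a class II gene that C57BL6 mice do not express, read at least 9.09 on 12 of the 14 NZWLacJ arrays but 4.37 on air replicate 5 and 4.74 on smoke replicate 5, against a median of 4.44 in C57BL6 wild type. These 2 arrays go against their strain label. NZWLacJ differences and counts of calls are given with and without them, while group levels, the order of groups and the shares of probes whose groups did not overlap hold all arrays unless stated. One C57BL6 smoke array, replicate 6, read 8.03, where the next highest C57BL6 array read 4.99. All 14 arrays labelled NZWLacJ by strain have C57 in their titles, and the strain label was used. Of all air arrays, NZWLacJ replicate 5 had the most Nqo1 (7.64) and Cyp1b1 (9.36), 2 genes raised by smoke in C57BL6. The C57BL6 air maxima were 6.88 and 7.75, and C57BL6 smoke spanned 7.09 to 9.45 and 6.56 to 11.63. In NZWLacJ smoke replicate 5, Nqo1 (7.11) lay only in the C57BL6 smoke range, but Cyp1b1 (7.38) lay in both C57BL6 ranges. Whether the exposure labels of these 2 arrays hold was not tested.

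The stretches of 100 bases just before the transcription start are shown for the 4 measured genes, since 3 of them rose together with smoke and Cbr2 did not. They are RefSeq sequence on build GRCm38.p6, 5′ to 3′ on the gene's strand, at chr16:93607737-93607836 (plus strand) for Cbr1, chr16:93683119-93683218 (plus) for Cbr3, chr6:34354046-34354145 (plus) for Akr1b8 and chr11:120732022-120732121 (minus) for Cbr2. Capitals mark GCGTG, the core of the element bound by the aryl hydrocarbon receptor, or its reverse complement CACGC.
Cbr1: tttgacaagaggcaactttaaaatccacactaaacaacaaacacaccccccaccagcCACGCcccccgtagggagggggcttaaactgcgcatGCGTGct
Cbr3: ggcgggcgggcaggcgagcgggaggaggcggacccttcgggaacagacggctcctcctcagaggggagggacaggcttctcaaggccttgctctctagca
Akr1b8: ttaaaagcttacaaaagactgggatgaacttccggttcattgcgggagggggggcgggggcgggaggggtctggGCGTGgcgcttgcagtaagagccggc
Cbr2: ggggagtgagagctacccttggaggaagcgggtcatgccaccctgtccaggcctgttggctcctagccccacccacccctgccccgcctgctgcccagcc

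The search covered windows of 300 bases, 250 before and 50 after the start, on both strands. GCGTG was found 2 times in the Cbr1 window, once in the Akr1b8 window, 22 to 26 bases before the start, and not in the Cbr2 or Cbr3 windows; 32.4% of all 32851 windows hold it. The core of the antioxidant response element, searched as TGACNNNGC, was found in none of the 4 windows, and 12.4% of all windows hold it. These are matches of letters and show no binding. The Cbr3 window was the richest of the 4 in G and C, at 60%, with 19 CpG pairs, and the Cbr2 window held 4 CpG pairs, beside medians of 52.7% and 7 over all windows. Cbr1 and Cbr3 are direct neighbours on chromosome 16, with no coding gene between them, and Akr1b8 lies in a row with Akr1b3, Akr1b10 and Akr1b7 on chromosome 6.

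Smoke raised 3 of the 4 measured genes in C57BL6 wild type, with the largest log2 differences on the 2 Cbr3 probes. By adjusted p, 4 of the 5 probes rose, where 0.729% of all probes tested did. In Hhip+/- 3 of the 5 rose (background 0.163%), in Fam13a-/- 4 (background 1.2%) and in NZWLacJ 1 (background 0.423%), or 3 without the 2 doubted arrays (background 1.56%). No probe fell in any unit, and the Cbr2 probe was called in none. Of the 8 measured club and secretory markers, none was called for smoke in C57BL6, Hhip+/- or NZWLacJ and 1, Reg3g, in Fam13a-/-; their median differences in the 4 units were 0.40, 0.15, 0.58 and 1.40 in the order C57BL6, Hhip+/-, NZWLacJ and Fam13a-/-. Their NZWLacJ median without the 2 doubted arrays was 0.10, with none called. Among markers of the other lung cell types with all arrays, only 2 of 5 endothelial genes were called for smoke, Tek and Sox17, both lower in Fam13a-/- (list median -0.36). In NZWLacJ without the 2 doubted arrays, 1 type 2 and 1 alveolar macrophage marker were called lower. The part of these cells in the members' rise was not tested.

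**Figure D1:**
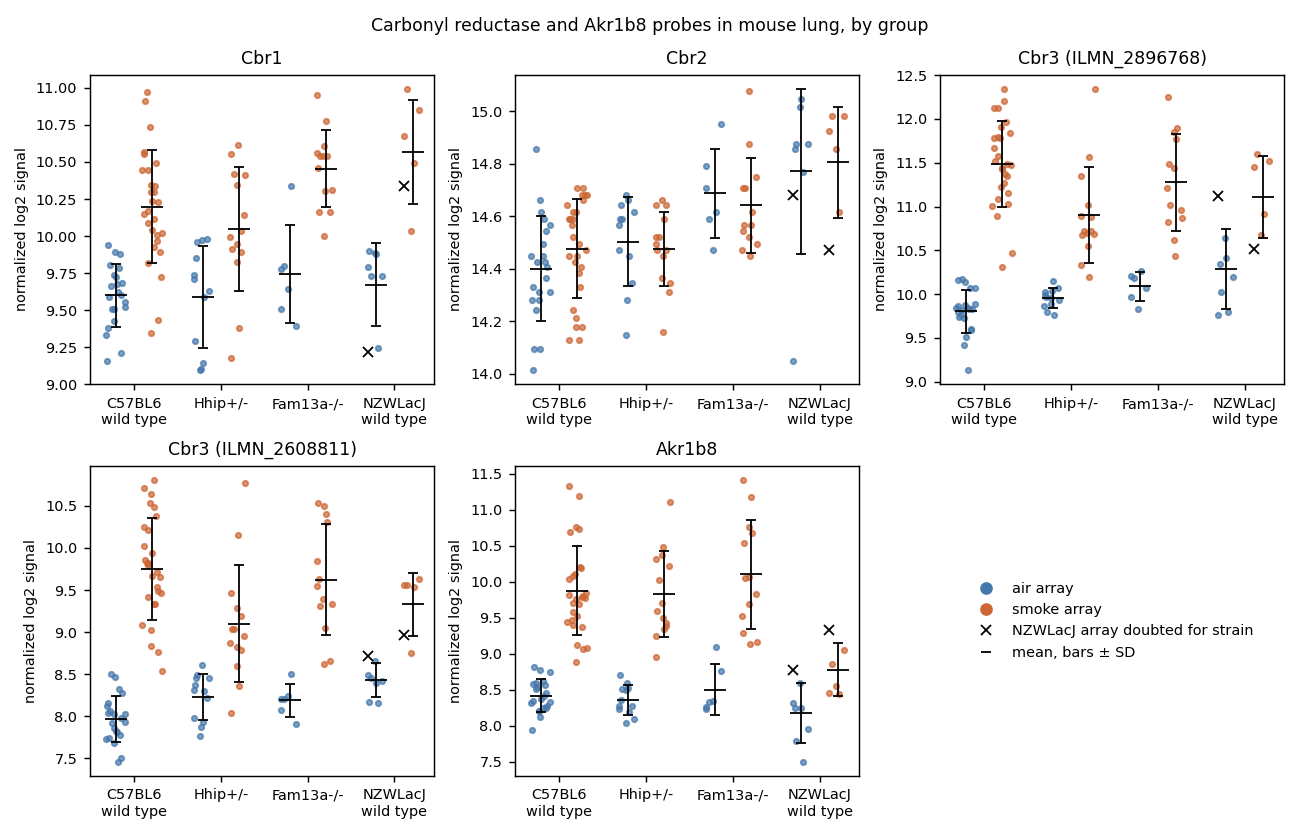
Normalized log2 signal (vertical axes) of the 5 probes on each array by strain or genotype unit and exposure; points are arrays, black bars are means ± SD, and crosses are the 2 NZWLacJ arrays doubted for strain. Smoke arrays stand above air arrays for both Cbr3 probes and Akr1b8 in C57BL6, with no such shift for Cbr2, whose signals lie between 14.01 and 15.08.

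Cbr3, a reductase of quinones and other carbonyls that is close in sequence to Cbr1, read from 9.13 over a median of 9.83 to 10.17 on the brighter probe, ILMN_2896768, in the 22 C57BL6 air arrays. In the 28 smoke arrays it read from 10.31 over 11.49 to 12.35. The lowest smoke array thus lay above the highest air array. The difference was 1.69 ± 0.12 (SE; 3.2-fold; adjusted p = 9.55e-22), and this probe ranked 1 of all probes tested by p-value. The other probe, ILMN_2608811, read 7.46 to 8.50 in air and 8.54 to 10.81 in smoke, with a difference of 1.79 ± 0.14 (adjusted p = 2.62e-19). It ranked 2, and again no smoke array overlapped the air arrays. Across all arrays the 2 probes correlated at r = 0.95, and at r = 0.82 after group means were removed.

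In Hhip+/- lungs the brighter Cbr3 probe read 9.76 to 10.15 in air, median 9.96. Smoke arrays read 10.20 to 12.34, median 10.72, so that here too all 14 smoke arrays lay above the 12 air arrays. The highest of them, replicate 3, stood well apart from the next, at 11.57. The rise was 0.95 ± 0.17 (1.9-fold; adjusted p = 1.58e-04), and 0.87 ± 0.19 (adjusted p = 0.0135) on the other probe, for which 11 of 14 smoke arrays lay above all air arrays. Under median scaling in place of quantile normalization neither Hhip+/- call stood, with 0.84 (adjusted p = 0.177) and 0.77 (adjusted p = 0.306). The second call was also lost with the authors' deposited values (adjusted p = 0.0516) and with only the groups compared (adjusted p = 0.0626).

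In Fam13a-/- lungs the same probe read 9.83 to 10.27 in air (median 10.13) and 10.44 to 12.25 in smoke (median 11.21). All 13 smoke arrays lay above the 6 air arrays on both probes. The rise was 1.19 ± 0.21 (2.3-fold; adjusted p = 9.86e-05) and 1.44 ± 0.24 (2.7-fold; adjusted p = 4.43e-05).

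In NZWLacJ lungs the brighter probe read 9.76 to 11.12 in air (median 10.27) and 10.51 to 11.60 in smoke (median 11.18). The highest air array and the lowest smoke array are the 2 doubted for strain, and with them 3 of 6 smoke arrays lay above all air arrays. The difference was 0.82 ± 0.23 (adjusted p = 0.0554) with all arrays and 1.06 ± 0.24 (2.1-fold; adjusted p = 0.00406) without those 2, when all 5 remaining smoke arrays lay above all 7 air arrays. On the other probe it was 0.90 ± 0.27 (adjusted p = 0.0803) and, without them, 1.02 ± 0.29 (adjusted p = 0.0356).

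By mean level of the brighter Cbr3 probe, the 4 smoke groups took the first places, in the order C57BL6, Fam13a-/-, NZWLacJ and Hhip+/-. Each step between them, 0.17 to 0.21, was smaller than the SDs of single arrays, 0.47 to 0.55. The ends of these 4 did differ, with Hhip+/- smoke below C57BL6 smoke by 0.59 ± 0.14 (adjusted p = 0.00903). The step from Hhip+/- smoke at 10.90 ± 0.55 (SD, n = 14) to the highest air group, NZWLacJ at 10.29 ± 0.45 (SD, n = 8), was 0.61. The spread was wider in smoke than in air in all 4 units on this probe, for example 0.49 against 0.25 (SD) in C57BL6.

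Akr1b8, an aldo-keto reductase that reduces aldehydes and is known in mouse also as a gene induced by fibroblast growth factor, followed the same course in the C57BL6, Hhip+/- and Fam13a-/- units. In C57BL6 it read 7.95 to 8.82 in air, median 8.39, and 8.89 to 11.33 in smoke, median 9.78. All 28 smoke arrays lay above all 22 air arrays, with a rise of 1.45 ± 0.14 (2.7-fold; adjusted p = 6.31e-14).

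Hhip+/- lungs read 8.04 to 8.71 in air (median 8.32) and 8.95 to 11.10 in smoke (median 9.65), a rise of 1.48 ± 0.20 (2.8-fold; adjusted p = 1.43e-07). Fam13a-/- lungs read 8.24 to 9.10 in air (median 8.34) and 9.14 to 11.42 in smoke (median 10.05), a rise of 1.60 ± 0.25 (3.03-fold; adjusted p = 4.77e-06). In neither unit did smoke and air arrays overlap.

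In NZWLacJ lungs the difference was not called. Akr1b8 read 7.50 to 8.77 in air (median 8.24) and 8.44 to 9.33 in smoke (median 8.71), and 3 of 6 smoke arrays lay above all air arrays. It was 0.61 ± 0.27 (adjusted p = 0.309), and 0.58 ± 0.29 without the 2 doubted arrays (adjusted p = 0.294). The mean of the NZWLacJ smoke arrays, 8.78 ± 0.36 (SD, n = 6), lay 1.05 below the next smoke group and only 0.28 above the highest air group, Fam13a-/- at 8.50 ± 0.35 (SD, n = 6).

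Smoke arrays that read wholly above all air arrays were rare among the probes tested. In C57BL6 0.026% of probes did so; these 4 probes were both Cbr3 probes, Akr1b8 and Nqo1. The shares were 0.0456% in Hhip+/-, with the brighter Cbr3 probe and Akr1b8 among the 7 probes, 0.28% in Fam13a-/-, with both Cbr3 probes and Akr1b8, and 0.0325% in NZWLacJ, with Cbr1 and ILMN_2608811 of Cbr3 among the 5.

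Cbr1, a broad reductase of quinones, prostaglandins and lipid aldehydes, rose by a smaller log2 difference in C57BL6 than its neighbour Cbr3; the probes were not tested against each other. It read 9.15 to 9.94 in air (median 9.61) and 9.34 to 10.97 in smoke (median 10.20). Here 22 of 28 smoke arrays lay above all air arrays, and the rise was 0.60 ± 0.09 (1.5-fold; adjusted p = 2.57e-06).

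In Hhip+/- lungs Cbr1 read 9.09 to 9.98 in air and 9.18 to 10.62 in smoke, with 8 of 14 smoke arrays above all air arrays. The difference of 0.46 ± 0.13 was not called (adjusted p = 0.152). In Fam13a-/- lungs it read 9.40 to 10.34 in air and 10.00 to 10.95 in smoke and rose by 0.71 ± 0.16 (1.6-fold; adjusted p = 0.00661). That call did not stand under median scaling (0.56, adjusted p = 0.368).

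In NZWLacJ lungs Cbr1 was the only member called for smoke with all arrays. It read 9.22 to 9.90 in air (median 9.76) and 10.03 to 10.995 in smoke (median 10.58), and the groups did not overlap. The rise was 0.89 ± 0.18 (1.9-fold; adjusted p = 0.00295), and 0.87 ± 0.19 without the 2 doubted arrays (adjusted p = 0.00269). The call was lost under median scaling (0.77, adjusted p = 0.351) and with only the 2 groups compared in the fit (adjusted p = 0.501). By mean level the 4 smoke groups again came first, but the step from Hhip+/- smoke, 10.05 ± 0.42 (SD, n = 14), to Fam13a-/- air, 9.74 ± 0.33 (SD, n = 6), was smaller than either SD.

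**Figure D2:**
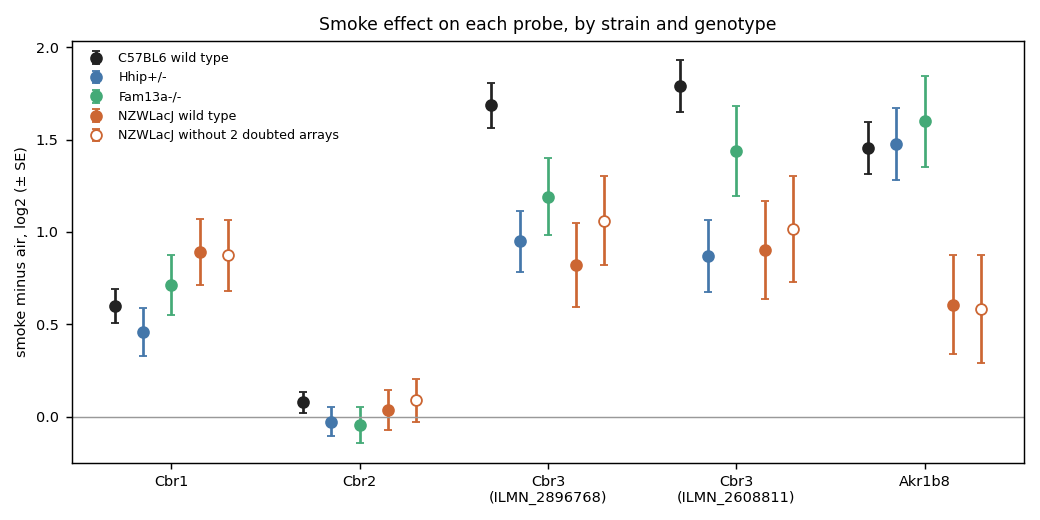
Smoke minus air on the log2 scale (vertical axis, ± SE) for each probe and unit; open symbols leave out the 2 NZWLacJ arrays doubted for strain. With all arrays Cbr3 ranges from 0.82 to 1.79 and Akr1b8 from 0.61 in NZWLacJ to 1.60 in Fam13a-/-, while Cbr2 lies between -0.05 and 0.08; the open symbols lie at 0.58 for Akr1b8 and 0.09 for Cbr2.

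The NZWLacJ arrays carry a further structure. A run of 6, 2 air and 4 smoke, have consecutive sample numbers from 36 to 41. Within these, smoke minus air was 1.27 for Cbr1, 1.38 and 1.29 for the 2 Cbr3 probes and 0.98 for Akr1b8. Among the other arrays, without the 2 doubted, 5 air arrays stood against 1 smoke array, and the differences were 0.20, 0.43, 0.31 and 0.31. All of these differences were above 0, and they were larger within the numbered run. With the run as a term and the 2 arrays left out no member was called. The Cbr1 difference was then 0.86 (adjusted p = 0.0702), close to the 0.87 without the term. The labels do not say whether the numbers mark a batch, and their part in the result was not tested beyond these values.

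**Figure D3:**
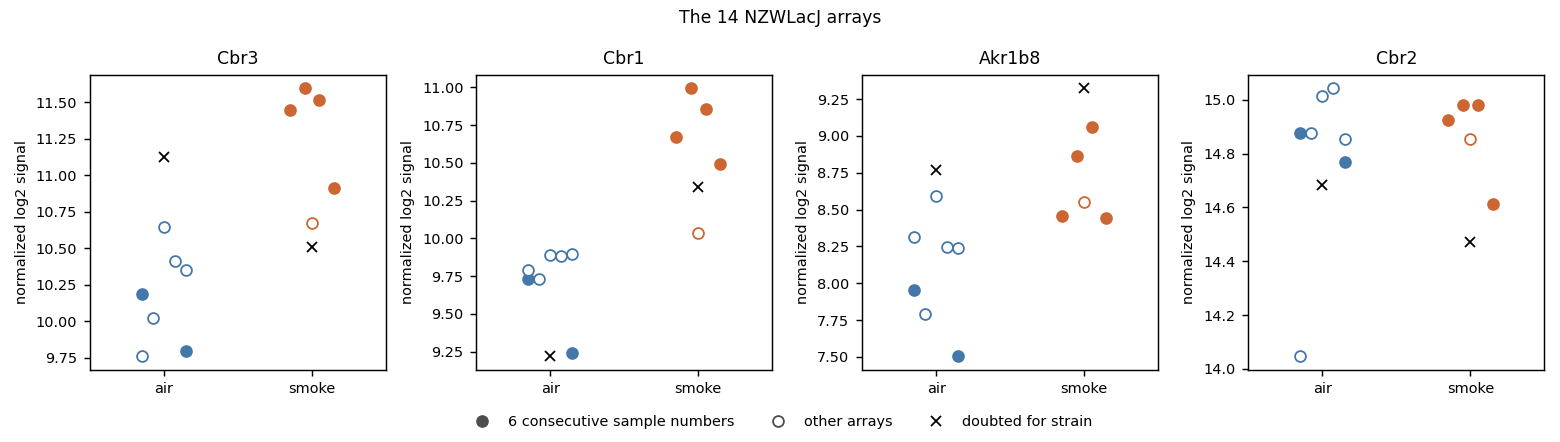
Normalized log2 signal (vertical axes) of the brighter Cbr3 probe, Cbr1, Akr1b8 and Cbr2 on each of the 14 NZWLacJ arrays, air and smoke; filled circles are the 6 arrays with consecutive sample numbers, open circles other arrays, crosses the 2 doubted for strain. The highest Cbr3 signals in smoke, up to 11.60, belong to the numbered run, and the doubted air array reads 11.12.

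Whether the smoke effect itself differed between units was tested as a difference of differences from C57BL6. No member was called. For Cbr3 the Hhip+/- effect was lower by 0.74 ± 0.20 (adjusted p = 0.825) on the brighter probe and was lower by 0.92 ± 0.24 (adjusted p = 0.517) on the other; these 2 probes had an unadjusted p below 0.05, and of all probes tested none was called (0%), with 4.22% at an unadjusted p below 0.05. With array weights both were called, at adjusted p = 0.0288 and 0.0104. The Akr1b8 effect differed by 0.02 ± 0.24 between Hhip+/- and C57BL6, with a 95% interval from -0.46 to 0.50.

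For Fam13a-/- the differences were -0.50 ± 0.24 and -0.35 ± 0.28 for Cbr3 and 0.14 ± 0.28 for Akr1b8, none called. Of the 5 probes 1 had an unadjusted p below 0.05, where 11.1% of all probes did and 0.0325% were called. For NZWLacJ they were -0.86 ± 0.26 (adjusted p = 0.119) and -0.89 ± 0.30 (adjusted p = 0.198) for Cbr3 and -0.85 ± 0.30 (adjusted p = 0.238) for Akr1b8. Here 3 of the 5 probes, those of Cbr3 and Akr1b8, had an unadjusted p below 0.05, where 11.7% of all probes did and 0.273% were called. Without the 2 doubted arrays the Cbr3 differences were -0.62 and -0.78 and that of Akr1b8 -0.87, none called, where 1.69% of all probes were. For Cbr1 the NZWLacJ effect was the larger by 0.29 ± 0.20 (adjusted p = 0.585), and by 0.27 ± 0.21 without those arrays (adjusted p = 0.550).

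Levels under smoke were also compared directly with C57BL6 smoke arrays, which these contrasts share with the smoke effects above. In Hhip+/- smoke lungs Cbr3 was lower, with differences of -0.59 ± 0.14 (adjusted p = 0.00903) and -0.66 ± 0.16 (adjusted p = 0.0144), 2 of 5 probes beside 1.53% of all probes. The call on the second probe was lost with only the groups compared (adjusted p = 0.071). In Fam13a-/- smoke no member was called, where 5.19% of all probes were; 2 of the 5 probes had an unadjusted p below 0.05, beside 16.5% of all probes. In NZWLacJ smoke Akr1b8 was lower by 1.09 ± 0.22 (adjusted p = 2.64e-05), Cbr1 higher by 0.37 ± 0.15 (adjusted p = 0.032) and Cbr2 higher by 0.33 ± 0.09 (adjusted p = 0.00156). These are 3 of 5 probes where 51% of all probes were called, so the count does not set the family apart. Without the 2 doubted arrays the values were -1.20, 0.41 and 0.40, all called, where 57.2% of all probes were. Under median scaling Cbr1 (0.22, adjusted p = 0.414) and Cbr2 (0.17, adjusted p = 0.334) were no longer called. The Cbr1 call was also lost with only the groups compared (adjusted p = 0.0665) and with the 2 arrays out and the numbered run as a term (adjusted p = 0.227). It was lost too when smoke replicate 1, 2 or 3 was left out, with differences of 0.34, 0.28 and 0.31.

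In air, no member was called between Hhip+/- and C57BL6 lungs, where 0.0781% of all probes were; 0 of the 5 probes had an unadjusted p below 0.05, beside 8% of all probes. None was called for Fam13a-/- either, nor was any other probe (0%; 5.47% of probes at an unadjusted p below 0.05), but Cbr2 stood 0.29 ± 0.09 higher at an unadjusted p of 0.00252 (adjusted p = 0.596). NZWLacJ air lungs had 2 of 5 probes called where 42.2% of all probes were. Cbr2 was higher by 0.37 ± 0.08 (adjusted p = 1.67e-04), and the brighter Cbr3 probe by 0.49 ± 0.17 (adjusted p = 0.0182). Without the 2 doubted arrays Cbr2 kept its call, at 0.38 ± 0.09 (adjusted p = 1.51e-04), and Cbr3 did not, at 0.37 ± 0.18 (adjusted p = 0.0837), where 45.7% of all probes were called. The Cbr3 call was also lost under median scaling (adjusted p = 0.0542).

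Cbr2 was called for smoke in no unit. It read 14.01 to 14.86 in C57BL6 air (median 14.41) and 14.13 to 14.71 in smoke (median 14.51), and the groups overlapped almost wholly. The difference was 0.08 ± 0.06, with a 95% interval from -0.04 to 0.19. In Hhip+/- it was -0.03 ± 0.08, in Fam13a-/- -0.05 ± 0.10 and in NZWLacJ 0.03 ± 0.11, and the widest of these intervals, that of NZWLacJ, ran from -0.18 to 0.25. Without the 2 doubted arrays the NZWLacJ difference was 0.09 ± 0.12, with an interval from -0.14 to 0.32. The probe is among the brightest, and its intensity was 16.5% to 85.3% of the highest on the same array. Quantile normalization sets each value by the probe's rank on its array, which for Cbr2 lay between 9 and 60. Whether its signal was compressed at this brightness was not tested.

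By mean level Cbr2 ran from NZWLacJ smoke, 14.80 ± 0.21 (SD, n = 6), and air, 14.77 ± 0.32 (SD, n = 8), over both Fam13a-/- groups at 14.69 and 14.64 to C57BL6 air at 14.40 ± 0.20 (SD, n = 22). No step between neighbours in this order exceeded 0.14, which is within the spread of single arrays. Groups further apart in the order did differ. In air NZWLacJ stood 0.37 ± 0.08 above C57BL6 (adjusted p = 1.67e-04). Markers of many cell types differed between NZWLacJ and C57BL6, as did 42.2% of all probes in air and 51% in smoke. For club and secretory cells, the log2 of the summed signal was 16.28 ± 0.13 (SD, n = 22) in C57BL6 air and 16.66 ± 0.25 (SD, n = 8) in NZWLacJ air. The brightest of the summed markers were Scgb1a1 and Cyp2f2, with means of 15.39 and 14.73 in C57BL6 air, so they weigh most in the sum. In NZWLacJ air 4 of the 8 measured markers were called higher (also 4 without the 2 doubted arrays). In NZWLacJ smoke 6 of 8 were (also 6 without them), and the sum ranged from 16.55 to 17.08, against 15.94 to 16.60 in C57BL6 smoke. Of 8 ciliated cell markers 7 were called higher in air and 7 in smoke, or 7 and 5, with 1 lower in smoke, without those arrays. Heart muscle markers were higher for 2 of 5 in air and 4 of 5 in smoke, and fibroblast markers for 3 and 4 of 7, with 1 lower in smoke. Lower were type 2 cell markers, 6 of 8 in air and 5 of 8 in smoke, alveolar macrophage markers, 3 of 5 in both, neutrophil markers, 4 and 3 of 4, T cell markers, 3 and 2 of 3, and B cell markers, 2 of 3 in both. Without the 2 arrays each of these counts stood or moved by 1. Markers also differed between Fam13a-/- smoke and C57BL6 smoke, where 5.19% of all probes were called. Higher were 7 of 8 ciliated, 3 of 8 club and secretory, 2 of 5 heart muscle and 2 of 2 adipocyte markers. Lower were 1 of 7 fibroblast and 1 of 5 endothelial markers. The Cbr2 difference there, 0.17 ± 0.07, was not called (adjusted p = 0.157). Of 14250 probes of named genes that passed the filter, that of Cyp2f2, a club cell P450, had the pattern most like Cbr2 over all arrays (r = 0.78, also without the 2 doubted, and 0.70 with group means removed), followed by Dnaic1, a dynein chain of motile cilia (r = 0.76), and Ly6g6c (r = 0.74). The part of airway cell content in the Cbr2 difference was not tested.

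**Figure D4:**
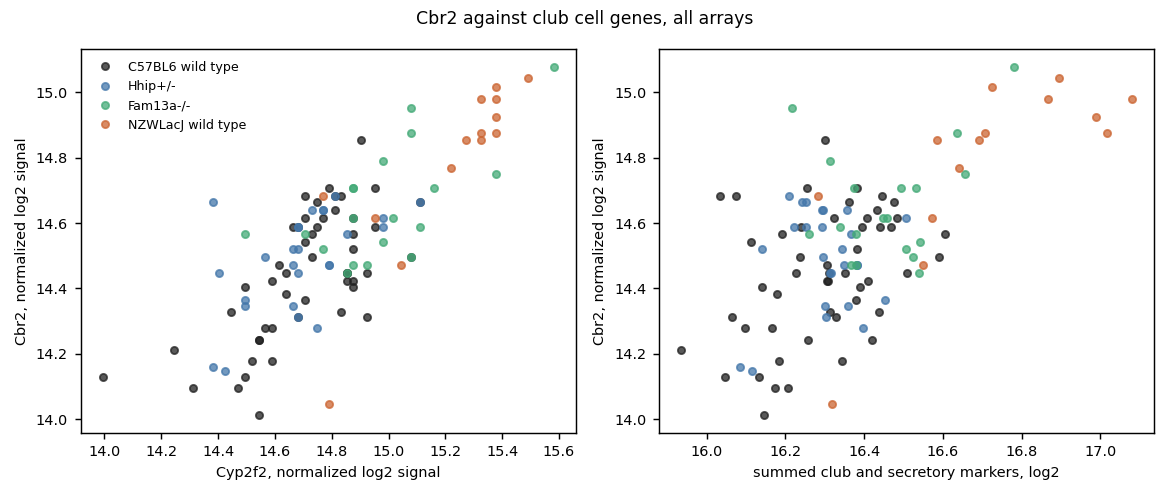
Normalized log2 signal of Cbr2 (vertical axes) against Cyp2f2 (left) and against the summed signal of the club and secretory markers on a log2 scale (right). That sum includes Cyp2f2. Each point is 1 array, coloured by unit. NZWLacJ arrays hold most of the highest values on both axes, and 1 of them reads 14.05 for Cbr2. The single highest values of Cbr2, 15.08, and of Cyp2f2, 15.58, belong to Fam13a-/- smoke arrays.

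The genes most like the smoke-raised members were smoke-raised themselves, so these likenesses describe the same contrast. For the brighter Cbr3 probe they were Aldh3a1, an aldehyde dehydrogenase (r = 0.92), Nqo1, a quinone reductase (r = 0.90), and Slc7a11, the cystine transporter (r = 0.83). For Akr1b8 they were Nqo1 (r = 0.88), Gstp1, a glutathione transferase (r = 0.87), and Aldh3a1 (r = 0.83). For Cbr1 they were Gstp1 (r = 0.74), Entpd5 (r = 0.73) and Gsta2 (r = 0.72). With group means removed Cbr3 stood at r = 0.84, 0.78 and 0.72 with its 3 genes in the order named. Akr1b8 stood at 0.66, 0.65 and 0.72 with its 3, and Cbr1 at 0.53, 0.49 and 0.62.

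Within the C57BL6 wild-type groups, 28 relations among Cbr1, Cbr2, Cbr3, Akr1b8, Nqo1 and Cyp1b1 were tested by permutation, two-sided and adjusted over the 28, and 7 passed. Among the 28 smoke arrays, Cbr3 and Akr1b8 rose and fell together, with r = 0.77 and rho = 0.77 (permutation p = 1e-05 for both, the smallest the resamples allow; adjusted p = 9.333e-05). Without the 2 arrays farthest from the median of Cbr3, r was 0.73. Nqo1 correlated with Cbr3 at r = 0.87 (rho = 0.86, adjusted permutation p = 9.333e-05; 0.84 without 2 arrays) and with Akr1b8 at r = 0.75 (rho = 0.80, adjusted permutation p = 9.333e-05; 0.77 without 2 arrays). Among the 22 air arrays Cbr3 and Akr1b8 gave r = 0.19 (rho = 0.19, permutation p = 0.390, adjusted p = 0.575); whether the air and smoke correlations differ was not tested.

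Cbr1 showed no called relation to the others in smoke. It gave r = 0.14 to Cbr3 (rho = 0.18, adjusted permutation p = 0.601) and r = 0.37 to Akr1b8 (rho = 0.40, adjusted permutation p = 0.180). To Nqo1 it gave r = 0.26 (adjusted permutation p = 0.371) and to Cyp1b1 r = -0.11 (adjusted permutation p = 0.632). Without the 2 arrays farthest from the Cbr1 median these were 0.24, 0.50, 0.39 and -0.04. Whether Cbr1 and Cbr3 differ in these relations was not tested. Cbr2 ran against Akr1b8 in smoke, with r = -0.49 and rho = -0.56 (adjusted permutation p = 0.0344 and 0.0155; r = -0.45 without 2 arrays). The relation of Cbr3 to Cyp1b1, r = 0.56 (permutation adjusted p = 0.0153), fell to 0.28 without the 2 arrays farthest from the Cbr3 median. Its rho was 0.35 (permutation adjusted p = 0.171), so the size of r depends on those arrays. With the first component of the residuals removed from both genes this r was 0.65. In air, Cbr1 correlated with Akr1b8 at r = 0.57 (rho = 0.51, adjusted permutation p = 0.0326 and 0.0787), which fell to 0.39 without 2 arrays, and with Cyp1b1 at r = 0.55 (rho = 0.57, adjusted permutation p = 0.0344 and 0.0366; 0.58 without 2 arrays). With the first component of the residuals removed from both genes the last was 0.30 and no longer passed. The labels give no batch within which to repeat these values.

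**Figure D5:**
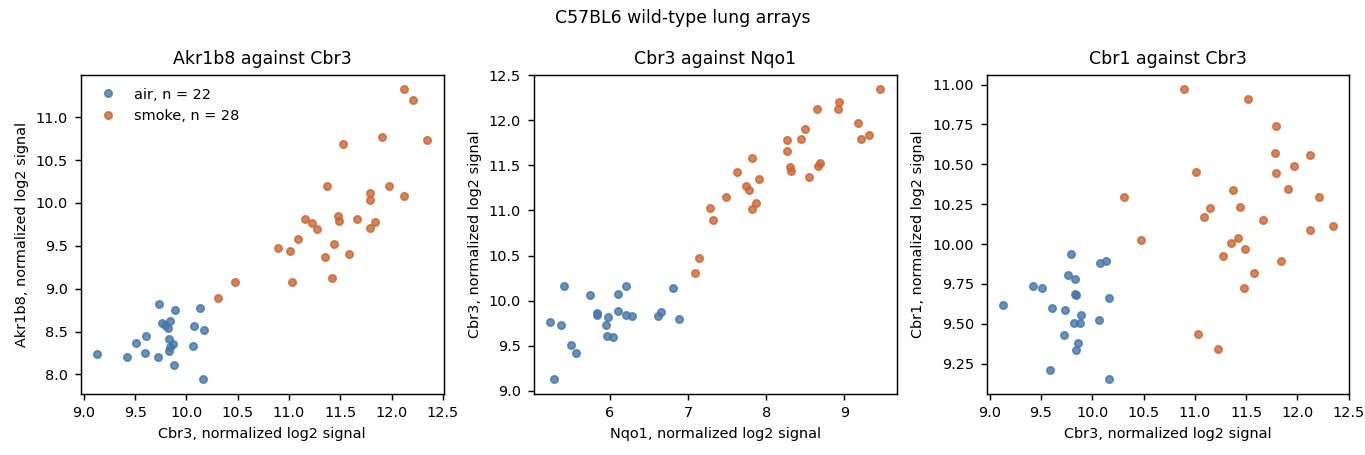
Normalized log2 signals of Akr1b8 against the brighter Cbr3 probe, Cbr3 against Nqo1, and Cbr1 against Cbr3 on the C57BL6 wild-type arrays; points are arrays, 22 air and 28 smoke. Smoke arrays with more Cbr3 also read more Akr1b8 (r = 0.77 within smoke) and more Nqo1 (r = 0.87), while Cbr1 shows little relation to Cbr3 (r = 0.14).

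In the wider enzyme families no gene was called for smoke, as few probes were overall. Of 18 other aldo-keto reductase genes listed, 16 had a probe and 9 passed the filter; none was called for smoke in any unit, with 1 of 9 at an unadjusted p below 0.05 in each. That p was met by 7.97% of all probes in C57BL6, 5.55% in Hhip+/-, 15.4% in Fam13a-/- and 13.1% in NZWLacJ. The median differences of the 9 were 0.01, 0.07, 0.14 and 0.10 in that order, beside 0.00, -0.01, -0.02 and -0.05 over all probes. Without the 2 doubted arrays the NZWLacJ median of the 9 was 0.11. Akr1b10, the neighbour of Akr1b8, differed by 0.01 ± 0.06 (adjusted p = 0.993). Of 36 other short-chain dehydrogenase genes listed, not all of them mainly carbonyl reductases, 28 were measured and none was called. At an unadjusted p below 0.05 were 1, 0, 3 and 3 in the same order. Leaving out the 2 doubted arrays called none of either family for smoke in NZWLacJ. Among the genes that flank Cbr1 and Cbr3, 5 on each side, 6 were measured, and 7 were near Akr1b8; none of them was called for smoke in C57BL6.

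Between strains genes of both families did differ. Of the other aldo-keto reductases, 7 of 9 were called in NZWLacJ air against C57BL6 air, 2 higher and 5 lower. Of all probes tested 42.2% were called. Without the 2 doubted arrays 6 of the 9 were called, 2 higher and 4 lower. Akr1e1 was lower by 2.04 ± 0.24 (adjusted p = 5.615e-12), Akr1c19 was lower by 1.41 ± 0.19 (adjusted p = 4.715e-10), and Akr1c14 was higher by 1.06 ± 0.30 (adjusted p = 0.00283); these 3 were picked after their values were seen. Without the 2 arrays they were -2.12, -1.71 and 1.33. Akr1e1 was detected on 20 of the 22 C57BL6 air arrays but on 0 of the 8 NZWLacJ air arrays. Its NZWLacJ mean of 4.55 is thus at background, which limits what the size of its difference can say. A further Akr1c14 probe, less bright and detected on 31 arrays, also passed the filter and is not described here. Of the 28 short-chain dehydrogenases, 4 were called higher and 10 lower in NZWLacJ air, where 42.2% of all probes were called. In NZWLacJ smoke 4 were higher and 12 lower, where 51% were called. Without the 2 doubted arrays these were 5 and 11 in air (background 45.7%) and 6 and 13 in smoke (background 57.2%). In Fam13a-/- smoke 2 were lower than in C57BL6 smoke, where 5.19% of all probes were called. Probe sequences were not used, so strain differences in sequence under a probe could not be assessed.

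Other known NRF2 targets rose beside the members. Of 24 measured, 10 rose in C57BL6, 3 in Hhip+/-, 6 in Fam13a-/- and 2 in NZWLacJ (3 without the 2 doubted arrays), and none fell. Of all probes 0.729%, 0.163%, 1.2% and 0.423% rose. The median differences of the 24 were 0.37, 0.29, 0.28 and 0.42, beside 0.00, -0.01, -0.02 and -0.05 over all probes. Without the 2 doubted arrays the NZWLacJ median of the 24 was 0.38. Nqo1 rose by 2.25 ± 0.20 in C57BL6 (4.77-fold; adjusted p = 5.04e-16) and was called in all 4 units. Gpx2, a glutathione peroxidase of epithelia, rose by 0.95 ± 0.12 (adjusted p = 5.967e-09), Slc7a11 by 2.33 ± 0.34 (adjusted p = 4.51e-07) and Gclm, a subunit of the enzyme that starts glutathione synthesis, by 0.90 ± 0.13 (adjusted p = 4.989e-07).

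Targets of the aryl hydrocarbon receptor, the sensor of aromatic hydrocarbons in smoke, rose too. Of 6 measured, 6 rose in C57BL6, 4 in Hhip+/-, 3 in Fam13a-/- and 4 in NZWLacJ (also 4 without the 2 doubted arrays), beside the same shares of all probes. Their median differences were 1.91, 1.29, 1.47 and 1.48. Without the 2 doubted arrays the NZWLacJ median was 1.85. Cyp1b1, a P450 induced by that receptor, rose by 2.96 ± 0.29 in C57BL6 (adjusted p = 1.113e-13), Aldh3a1 by 1.95 ± 0.21 (adjusted p = 2.263e-12) and Cyp1a1 by 1.87 ± 0.21 (adjusted p = 3.626e-11), and Nqo1 stands in both lists. In NZWLacJ lungs Cyp1b1 rose by 3.41 ± 0.56 (adjusted p = 1.157e-04) and Nqo1 by 1.60 ± 0.38 (adjusted p = 0.0215), where the Akr1b8 difference was 0.61. Without the 2 doubted arrays these were 4.40, 1.93 and 0.58.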

How the data were processed

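Single-colour Illumina bead arrays measured lung RNA, 1 array per sample, per the labels' protocols. The deposited table of the authors holds an intensity and a detection p-value per probe and array for 25697 probes, not normalized between arrays, per the file headers and the values. Neither the scanner software nor the method behind a second deposited table, of log2 values, is stated in the sources. Each column of that table ranked its probes most like the intensities of its own array (Spearman), and its column medians ran from 7.21 to 7.22; it served as an alternative.

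The main values came from limma 3.58.1 in R 4.3.3. The neqc function applied normexp background correction (offset 16, background inferred through the detection p), then quantile normalization, then log2. Probes with a detection p below 0.01 on at least 6 arrays were kept. Platform annotation names 23978 probes by 1 gene symbol and 1719 by none, and symbols were updated through a RefSeq gene table. All 8 groups entered 1 model of group means (lmFit, eBayes, 101 residual degrees of freedom) with 13 contrasts, two-sided, Benjamini-Hochberg adjustment over the 15363 probes and a threshold of 0.05. Every adjusted p not called a permutation p is from limma. Correlations used 100000 permutations (scipy 1.17.1, numpy 2.4.6, Python 3.11.15). Array number limits the precision.

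The text names the members, Nqo1 and Cyp1b1, up to 4 called genes of each other list by smallest adjusted p in C57BL6, and the 3 genes most like each member by Pearson r. Members and lists were chosen with earlier results of these data known, and the lists overlap. Marker lists not described elsewhere gave these calls of NZWLacJ against C57BL6: type 1 cells (1 lower in air, 2 higher and 2 lower in smoke), endothelium (0 in air, 1 higher in smoke) and adipocytes (0 in both). Without the 2 doubted arrays type 1 cells gave 2 lower in air and the same in smoke. Endothelium gave 1 higher in air, and 1 higher and 1 lower in smoke. Adipocytes gave 0 in air and 1 higher in smoke. Alternatives changed the normalization, the deposited values, the filter, the probe choice, the arrays entered, array weights and covariates. The fit was tested on simulated data.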

Additional observations from a re-analysis of the deposited data

Results flagged for a closer look

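Among the 15 sets of probe and group with few enough arrays to test, 1 array stood apart. In NZWLacJ air, replicate 1 read 14.05 for Cbr2, where the other 7 arrays read 14.68 to 15.04, so that its gap to the nearest was 0.637 of the whole range. Chance alone flags about 1 in 20 such sets.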

How the results depend on the processing

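Called members numbered 3 to 4 of 5 in C57BL6 smoke and in Fam13a-/- smoke under every alternative run, and leaving out the C57BL6 smoke array with H2-Ea signal, an alternative chosen after seeing the data, left 4. Median scaling shifts the median of all probes to -0.11 for smoke in Fam13a-/- and NZWLacJ; it lowered the count for Hhip+/- smoke from 3 to 1 (2 to 4 under the other alternatives, 4 with array weights), for NZWLacJ smoke from 1 to 0, for NZWLacJ in air from 2 to 1 and for NZWLacJ in smoke from 3 to 1. For smoke in NZWLacJ the count was also 0 with only the groups compared and with the 2 doubted arrays out and the numbered run as a term; it was 2 with the deposited values, the brightest probe per gene or arrays below 45% detected left out, and 3 with array weights, the detected share or the first residual component as covariate, or without the 2 doubted arrays. Leaving out 1 array gave 1 to 3 (air replicate 5 gave 2, air replicate 3 and smoke replicates 5 and 6 gave 3). The difference of smoke effects reached 2 for Hhip+/- with array weights, and for NZWLacJ 1 with array weights, 2 with the residual component and 0 to 1 leaving out 1 array (air replicate 4 gave 1). Fam13a-/- in air reached 1, Cbr2, with array weights. NZWLacJ in air fell from 2 to 1 without the 2 doubted arrays, with or without the run as a term, and to 1 to 2 leaving out 1 array (air replicate 5 gave 1). Hhip+/- in smoke fell from 2 to 1 with the brightest probe per gene, which keeps 1 Cbr3 probe, and with only the groups compared. The cause was not tested in the other cases. Over all probes, smoke calls ran from 88 to 223 in C57BL6 (main 128), 5 to 207 in Hhip+/- (28), 59 to 2043 in Fam13a-/- (277) and 0 to 2725 in NZWLacJ (118). Calls for the difference of smoke effects ran from 0 to 22 in Hhip+/- (0), 0 to 825 in Fam13a-/- (5) and 1 to 2188 in NZWLacJ (42). In air they ran from 1 to 298 in Hhip+/- (12), 0 to 356 in Fam13a-/- (0) and 4169 to 7451 in NZWLacJ (6483), and in smoke from 75 to 715 (235), 200 to 1184 (798) and 4341 to 9647 (7828). The share of smoke calls that rose went from 66.4% to 94.9% in Fam13a-/- and from 55.1% to 100% in NZWLacJ under median scaling, and to 67.8% in NZWLacJ with the deposited values.

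Signs changed only in differences that were not called. Under median scaling these were Cbr2 for NZWLacJ smoke (-0.0937), the differences of smoke effects of Akr1b8 in Hhip+/- (-0.18) and Fam13a-/- (-0.0926) and of Cbr1 in Fam13a-/- (-0.12), and Cbr1 in Hhip+/- air (0.0011). With array weights they were Akr1b8 (-0.10) and Cbr1 (0.0594) in the same Hhip+/- contrasts, Cbr2 in Hhip+/- smoke against C57BL6 (0.0127) and Cbr2 for the NZWLacJ difference of effects (0.0061, and 0.0120 without the 2 doubted arrays). Without arrays below 45% detected, those Hhip+/- values were -0.0167 and 0.0060. Leaving out 1 array, Cbr2 ranged from -0.0889 to 0.0070 for Fam13a-/- smoke, from -0.0696 to 0.10 for NZWLacJ smoke and from -0.15 to 0.0246 for its difference of effects, and Akr1b8 in Fam13a-/- air from -0.0357 to 0.14. The correlation count was 7 with the deposited values and 6 with the first residual component removed, an alternative chosen after seeing the data, under which r turned to 0.11 for Cbr1 with Cbr3 and to 0.0068 for Cbr2 with Cyp1b1 in air. No paired analysis was possible because the labels state no pairing of arrays. They give no replicate numbers either, and those used here follow the order of sample numbers within each group.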
